A study of Homo sapiens with 9 samples.

Results

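Eph receptors and their ephrin ligands were followed in HaCaT keratinocytes, an immortalized human skin cell line of wild-type genotype. For this, 10 genes were chosen by symbol from the 16199 genes listed in at least 1 library. The choice was made with earlier results of these data known. The 10 genes are the A-type receptors EPHA1, EPHA2 and EPHA4, the B-type receptors EPHB2, EPHB3, EPHB4 and EPHB6, the A-type ligand EFNA1, and the B-type ligands EFNB1 and EFNB2. RNA was sequenced from 3 groups of 3 libraries: untreated cells in serum-free medium, cells given EGF at 10 nM for 24 h, and cells given bleogen pB1 at 1 µM for 24 h, with the agents added after the cells had become confluent. EGF is the prototypic ligand of the EGF receptor, and bleogen pB1 is a cactus-derived peptide, chemically synthesized for the study, that also activates this receptor. The doses of the agents differ, all groups come from a single cell line, and no source used here says whether the 3 libraries of a group came from separate cultures, so that the p-values measure the spread between these libraries.

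Eph receptors are receptor tyrosine kinases whose ligands, the ephrins, stay attached to the surface of neighbouring cells, so that signals pass at sites of cell contact. A-type ephrins are held by a lipid anchor and B-type ephrins cross the membrane, and the ephrin-bearing cell can itself receive a signal, called reverse signalling. In epidermis and other epithelia the family is known for controlling cell adhesion, repulsion, migration and the position of tissue boundaries.

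In EGF-treated cells the B-type ligands EFNB1 and EFNB2 rose, the A-type ligand EFNA1 fell, and among the receptors EPHB6 rose while EPHA4 and EPHB3 fell. These 6 of the 10 genes were called in EGF against untreated cells, 3 higher and 3 lower, where 36.9% of the 12394 genes tested were called (15.1% higher and 21.8% lower). Of the called genes 41.0% were higher, or 30.2% with upper-quartile scaling. That scaling put the median log2 fold change of all genes at −0.12 in place of −0.01. The paper, which used DESeq2 at the same limits, reports more genes higher than lower with EGF. The cause of this difference was not tested. None of the 10 was called in bleogen pB1 against untreated cells, where 1.48% of the genes tested were called. A gene was called when its adjusted p was at most 0.05 and its log2 fold change at least 0.5 in size, by the quasi-likelihood test of edgeR, with p-values adjusted after Benjamini and Hochberg across every gene tested. All 10 genes passed the filter on low counts, with between 78 and 3585 counts in any library.

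The libraries held between 20288417 and 21320994 expected counts, so that 3 counts, taken as the floor, correspond to a CPM (count scaled to library size) of 0.141 to 0.148. This floor covers counting error only. All 12 keratinocyte markers reached an FPKM (fragment count scaled for transcript length and depth) of 1 in every library, with a summed FPKM of 6180 to 6760 in untreated, 5730 to 5810 in EGF-treated and 6180 to 7130 in bleogen pB1-treated cells. These sums hide opposite changes with EGF. KRT5 and CDH1 were called lower, with log2 fold changes of −1.12 and −0.66. KRT14, TP63, COL17A1 and LAMB3 were called higher, at 0.88, 0.50, 0.66 and 0.65. None of 9 fibroblast and none of 7 endothelial markers reached 1 in any library, although their sums were lower with EGF, at 0.26 to 0.36 against 1.44 to 1.87 untreated for fibroblast and 0.08 to 0.18 against 0.77 to 1.18 untreated for endothelial genes. In bleogen pB1-treated cells these sums were 1.16 to 1.85 and 0.27 to 0.34, and TIE1 had no entry in any library. Of 7 melanocyte markers MITF alone reached 1, with sums of 1.93 to 2.58 untreated, 1.42 to 1.81 with EGF and 1.79 to 2.13 with bleogen pB1, and TYR had no entry in any library. Of 7 leukocyte markers CD68 and LYZ reached 1, and the sum was 7.04 to 8.03 untreated, 11.2 to 12.1 with EGF and 7.21 to 7.35 with bleogen pB1, while PTPRC, which marks all leukocytes, did not pass 0.14. The higher sum with EGF lay in CD68, at 6.53 to 6.82 FPKM untreated and 10.14 to 11.29 with EGF. CD68 was called higher (log2 fold change 0.77, edgeR adjusted p = 1.1e-05), and LYZ was not called (0.03, adjusted p = 0.94). The part of these other markers in the results was not tested. In bulk RNA, fewer cells of a type and less RNA per cell cannot be told apart.

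**Figure D1:**
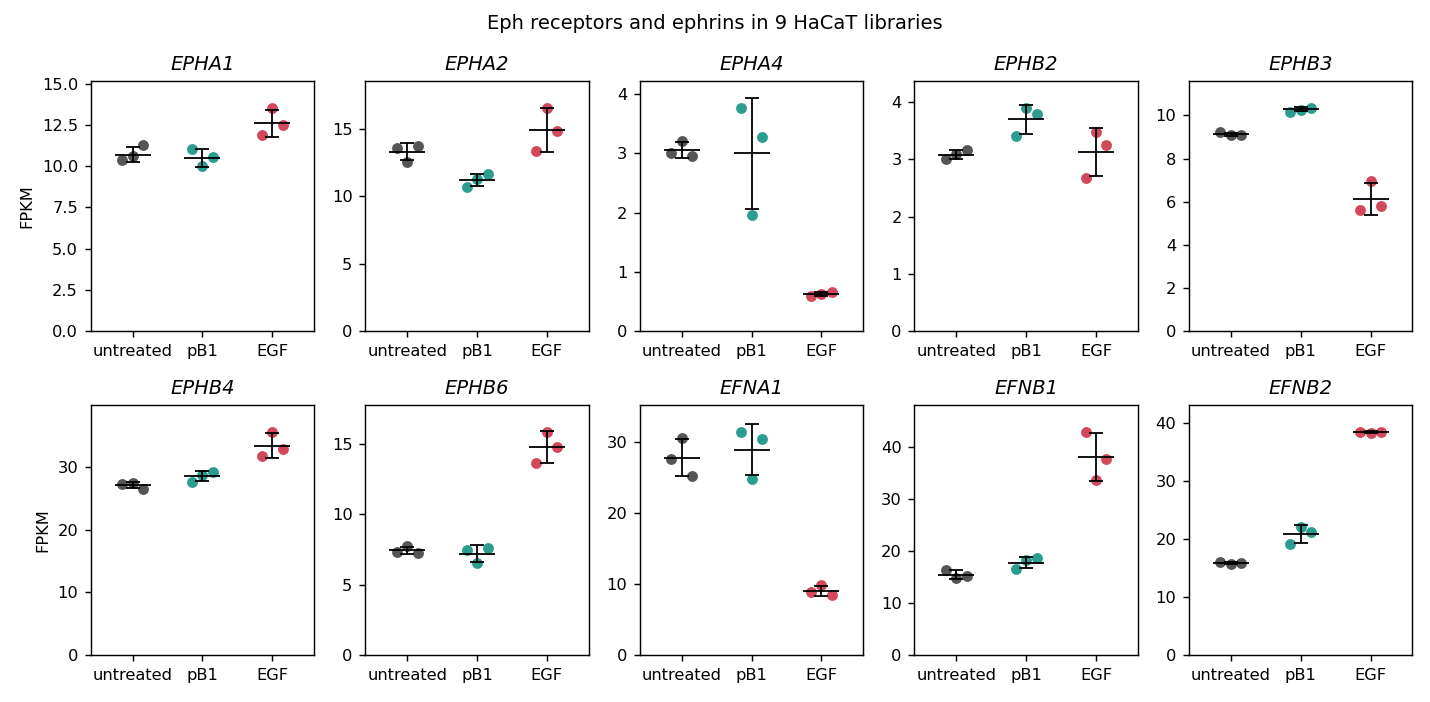
Levels of the 10 Eph receptor and ephrin genes, in FPKM on a linear axis that starts at 0 and has its own range in each panel, for untreated, bleogen pB1-treated (pB1) and EGF-treated cells. Each dot is a library and the black bars show the mean ± SD of 3 libraries. EFNB1, EFNB2 and EPHB6 lie higher with EGF than in all other libraries, and EFNA1, EPHA4 and EPHB3 lie lower.

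FPKM is scaled for transcript length and was used to order the genes by level, as the plot of levels by library shows. In untreated cells EFNA1 stood at 27.8 ± 2.67 FPKM (SD, n = 3) and EPHB4 at 27.1 ± 0.467, with overlapping ranges. EFNB2 at 15.9 ± 0.167 and EFNB1 at 15.5 ± 0.821 followed, also with overlapping ranges. EPHA2, EPHA1, EPHB3 and EPHB6 came next at 13.3 ± 0.654, 10.7 ± 0.462, 9.12 ± 0.0757 and 7.44 ± 0.242 FPKM, each separate from the next in the order. EPHB2 at 3.08 ± 0.0802 and EPHA4 at 3.06 ± 0.132 were lowest of the 10 and overlapped. Outside the 10 genes, untreated EFNA4 stood at 14.3 ± 1.46, EPHA3 at 4.66 ± 0.15, EFNA5 at 3.87 ± 0.529 and EFNA3 at 3.58 ± 0.467. With EGF the order was led by EFNB2 at 38.5 ± 0.117 and EFNB1 at 38.2 ± 4.65, whose ranges overlapped, and the range of EFNB1 also overlapped that of EPHB4 at 33.4 ± 2.01. EFNA1 moved from the top of the untreated order to rank 7 with EGF, at 9.03 ± 0.668, and EPHA4 was last at 0.63 ± 0.04. With bleogen pB1 EFNA1 and EPHB4 again led, at 28.9 ± 3.61 and 28.5 ± 0.783, and again overlapped.

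The starts of the 4 genes with the most extreme called changes with EGF are shown so that the rising and falling genes can be read side by side. Each window is from RefSeq on GRCh38.p14, runs from 250 bases before to 50 bases after the start on the gene's own strand, and has capitals at matches of the GC box, GGGCGG, on either strand. The B-type ligand genes, which rose, are EFNB1 at chrX:68828771-68829070 on the plus strand and EFNB2 at chr13:106535613-106535912 on the minus strand:
EFNB1: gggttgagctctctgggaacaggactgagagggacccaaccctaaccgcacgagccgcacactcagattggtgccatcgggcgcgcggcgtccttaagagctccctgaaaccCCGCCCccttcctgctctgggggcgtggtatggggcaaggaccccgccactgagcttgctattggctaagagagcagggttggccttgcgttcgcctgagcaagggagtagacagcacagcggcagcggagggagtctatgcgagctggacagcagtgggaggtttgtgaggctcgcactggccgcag
EFNB2: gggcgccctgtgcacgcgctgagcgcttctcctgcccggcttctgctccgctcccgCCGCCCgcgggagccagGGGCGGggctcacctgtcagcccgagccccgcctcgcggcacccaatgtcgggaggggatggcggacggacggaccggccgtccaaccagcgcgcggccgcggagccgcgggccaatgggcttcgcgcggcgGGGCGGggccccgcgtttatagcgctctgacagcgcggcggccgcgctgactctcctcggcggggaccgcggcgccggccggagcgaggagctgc
The falling genes are EFNA1 at chr1:155127626-155127925 on the plus strand and EPHA4 on the minus strand, which has 2 starts in the table, at chr2:221574153-221574452 and chr2:221572255-221572554:
EFNA1: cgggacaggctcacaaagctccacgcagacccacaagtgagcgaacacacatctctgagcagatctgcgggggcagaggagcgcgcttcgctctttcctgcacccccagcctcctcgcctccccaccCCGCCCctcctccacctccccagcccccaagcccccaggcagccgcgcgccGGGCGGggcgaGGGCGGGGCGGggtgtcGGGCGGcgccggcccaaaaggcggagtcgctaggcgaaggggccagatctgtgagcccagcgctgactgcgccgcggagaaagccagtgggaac
EPHA4 start 1: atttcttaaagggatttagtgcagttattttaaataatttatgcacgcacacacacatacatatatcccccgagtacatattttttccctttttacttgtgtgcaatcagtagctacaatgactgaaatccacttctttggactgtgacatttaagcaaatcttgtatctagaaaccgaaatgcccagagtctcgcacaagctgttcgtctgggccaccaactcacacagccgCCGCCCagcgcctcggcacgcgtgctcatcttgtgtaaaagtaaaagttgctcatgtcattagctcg
EPHA4 start 2: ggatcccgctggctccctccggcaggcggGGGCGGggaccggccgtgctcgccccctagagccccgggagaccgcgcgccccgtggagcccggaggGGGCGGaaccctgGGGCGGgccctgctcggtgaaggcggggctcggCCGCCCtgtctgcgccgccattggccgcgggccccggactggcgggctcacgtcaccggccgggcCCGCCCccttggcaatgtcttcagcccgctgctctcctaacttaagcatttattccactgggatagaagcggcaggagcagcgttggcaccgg
A GC box was found in 1 place in the window of EFNB1, in 3 places in that of EFNB2, in 5 in that of EFNA1, and in 1 and 5 in those of EPHA4. All 10 genes had at least 1 window with a GC box, against 45% of 35116 promoters of the same length. GC content was 63.7% for EFNB1, 78.7% for EFNB2, 71.7% for EFNA1 and 43% and 74.3% for the EPHA4 starts, beside a median of 58.7% over all promoters. The AP-1 letters TGANTCA, searched on both strands, were in none of the 10 genes' windows and in 7.71% of all promoters. None of the 10 held the ETS letters CCGGAAG, the E-box CACGTG or a CArG box, which 10.3%, 7.26% and 1.29% of all promoters held. The CRE letters TGACGTCA and the TEAD letters GGAATG were each found in EPHA2 alone among the 10, against 1.85% and 14% of all promoters. The EGR letters GCGGGGGCG, were found in EPHA1 and EPHA4, where both matches overlap GC boxes, against 5.07%, and the TATA box letters TATAAA in EFNB2, against 11.5%. These matches describe the letters in the windows. A gene counted when any of its windows held a match, while the percentages are over single promoters. The window of EPHB6, at chr7:142862506-142862805 on the plus strand, lies inside the gene, which begins at chr7:142855061. The sequence around that beginning was not searched. All 300 bases of the window of EPHA4 start 1 lie in exons of an lncRNA on the opposite strand. The window of EPHA4 start 2 lies inside the gene, and 104 of its bases are in EPHA4 exons.

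EFNB1 encodes ephrin-B1, a transmembrane ligand of the EPHB receptors, and lies at chrX:68829021-68842160 (GENCODE 44, GRCh38). Its FPKM was 16.5, 14.9 and 15.3 in the untreated libraries, 43.1, 33.8 and 37.8 with EGF, and 16.5, 18.3 and 18.6 with bleogen pB1. Every EGF library lay above every other library, while the lowest bleogen pB1 library was level with the highest untreated one at 16.5. EFNB1 rose 2.57-fold with EGF (log2 fold change 1.36, SE 0.09, edgeR adjusted p = 5.5e-08).

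EFNB2 encodes ephrin-B2, a transmembrane ligand that binds EPHB4 and other B-type receptors, and lies at chr13:106489745-106535662. Its FPKM was 16.1, 15.8 and 15.9 in the untreated libraries, 38.6, 38.4 and 38.6 with EGF, and 19.2, 22.1 and 21.3 with bleogen pB1. The 3 groups did not overlap, and bleogen pB1 lay between untreated and EGF. EFNB2 rose 2.52-fold with EGF (log2 fold change 1.33, SE 0.06, edgeR adjusted p = 2.2e-09). With bleogen pB1 it had an edgeR adjusted p of 0.0039 and a log2 fold change of 0.37 (SE 0.06), short of the fold-change limit.

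EFNA1 encodes ephrin-A1, a lipid-anchored ligand of EPHA2 and other A-type receptors, and lies at chr1:155127876-155134899. Its FPKM was 27.6, 30.5 and 25.2 in the untreated libraries, 8.81, 9.78 and 8.50 with EGF, and 31.5, 24.8 and 30.5 with bleogen pB1. All EGF libraries lay far below the other 6, whose groups overlapped. EFNA1 fell to 0.341 of its untreated level with EGF (log2 fold change −1.55, SE 0.11, edgeR adjusted p = 1.5e-07), and its log2 fold change with bleogen pB1 was 0.03 (SE 0.10, adjusted p = 0.88).

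EFNA1 moved opposite to EFNB1 and EFNB2 in EGF-treated cells, and the makeup of the ligand mRNA differed. The B-type ligands made up 54.1%, 50.1% and 55.3% of the summed FPKM of the 3 ephrin genes in untreated libraries, 90.3%, 88.1% and 90% with EGF, and 53.2%, 62% and 56.7% with bleogen pB1. The EGF libraries stood apart from the other 6, whose groups overlapped. This share was computed after the values were seen and has no test. Over all ephrin genes of the family the mean share was 39.2% untreated, 76.4% with EGF and 43.2% with bleogen pB1.

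**Figure D2:**
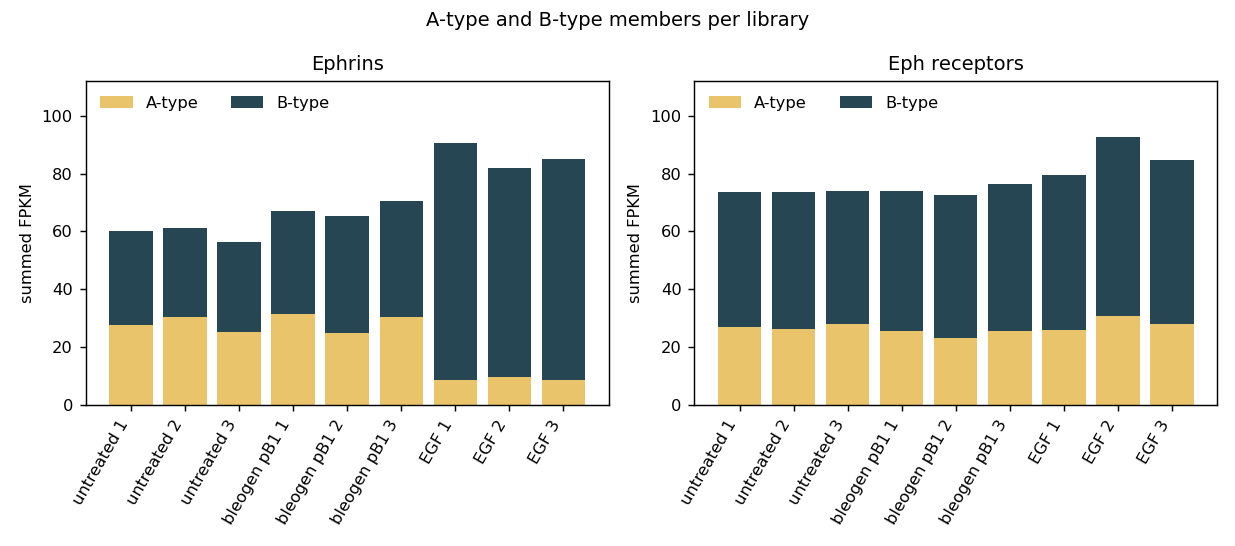
Summed FPKM of the ephrin genes and of the receptor genes in each of the 9 libraries, as stacked bars from 0 divided into A-type and B-type genes. B-type ephrins sum to 72.2 to 81.6 FPKM with EGF against 30.7 to 32.6 untreated, and A-type ephrins to 8.5 to 9.78 against 25.2 to 30.5.

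The 3 ephrin genes together summed to 59.2 ± 2.54 FPKM (SD, n = 3) untreated, 85.8 ± 4.3 with EGF and 67.6 ± 2.61 with bleogen pB1. The sum was 1.45-fold higher with EGF than untreated and 1.14-fold higher with bleogen pB1, with no overlap between groups in either comparison (two-sided exact permutation tests, each p = 0.1, which is the smallest p that 3 against 3 libraries allow). The 7 receptor genes summed to 73.8 ± 0.146 untreated, 85.6 ± 6.65 with EGF and 74.4 ± 1.9 with bleogen pB1 (two-sided exact permutation tests against untreated, p = 0.1 and p = 0.7). The ratio of ephrin to receptor FPKM was 0.803 ± 0.0359 untreated, 1.01 ± 0.127 with EGF and 0.908 ± 0.0119 with bleogen pB1, and did not overlap with untreated in either treatment (two-sided exact permutation tests, each p = 0.1). With all family genes in the sums, the log2 ratio of the ephrin sums in EGF and untreated cells was 0.30 in place of 0.53, and that of the ephrin to receptor ratio was 0.15 in place of 0.33. The ratios were then no longer separate, at 0.994 to 1.28 with EGF and 0.969 to 1.07 untreated, and the lowest ratio with bleogen pB1 was also 1.07. The ephrin sums over all family genes were 77.2 to 85.2 untreated and 85.2 to 93.6 with bleogen pB1, so these groups were no longer separate either.

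EPHA4 encodes a receptor that binds both A-type and B-type ephrins, and lies at chr2:221418027-221574202. Its FPKM was 3.01, 3.21 and 2.96 in the untreated libraries, 0.59, 0.63 and 0.67 with EGF, and 3.77, 1.96 and 3.27 with bleogen pB1. The EGF libraries lay below all others, and bleogen pB1 replicate 2 lay apart from the other libraries of its group. EPHA4 fell to 0.215 of its untreated level with EGF (log2 fold change −2.22, SE 0.21, edgeR adjusted p = 1.3e-06), on 391, 415 and 389 counts untreated against 78, 82 and 91 with EGF. Its log2 fold change with bleogen pB1 was −0.04 (SE 0.18, edgeR adjusted p = 0.92), and 0.19 (adjusted p = 0.47) without bleogen pB1 replicate 2.

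EPHB6 encodes a receptor whose kinase domain lacks catalytic activity, and lies at chr7:142855061-142871094. Its FPKM was 7.34, 7.72 and 7.27 in the untreated libraries, 13.6, 15.9 and 14.8 with EGF, and 7.43, 6.53 and 7.63 with bleogen pB1. Every EGF library was above the other 6, whose groups overlapped. EPHB6 rose 2.05-fold with EGF (log2 fold change 1.03, SE 0.08, edgeR adjusted p = 3.6e-07), and its mean share of the summed receptor FPKM was 10.1% untreated, 17.2% with EGF and 9.67% with bleogen pB1.

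EPHB3, a B-type receptor known in intestinal crypts for keeping cell types in place, lies at chr3:184561785-184582408. Its FPKM was 9.21, 9.09 and 9.07 in the untreated libraries, 5.61, 6.98 and 5.78 with EGF, and 10.2, 10.2 and 10.3 with bleogen pB1. The 3 groups did not overlap, with EGF lowest and bleogen pB1 highest. EPHB3 fell with EGF (log2 fold change −0.51, SE 0.08, edgeR adjusted p = 0.00012), close to the limit of 0.5. Its log2 fold change was −0.46 without EGF replicate 1 and −0.47 without EGF replicate 3, which ended the call, and the adjusted p remained under 0.05 in both cases.

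**Figure D3:**
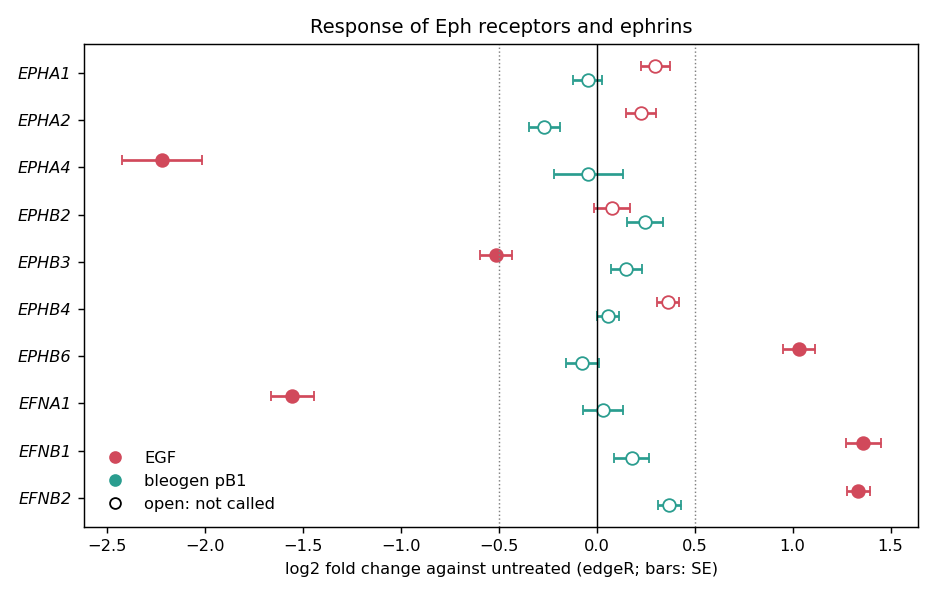
Log2 fold changes of the 10 genes against untreated cells for EGF (red) and bleogen pB1 (green), from the edgeR fit over all 9 libraries, with bars for the SE. Filled points are called genes, open points are not called, and dotted lines mark log2 fold changes of −0.5 and 0.5. The EGF values run from −2.22 for EPHA4 to 1.36 for EFNB1 and the bleogen pB1 values from −0.27 for EPHA2 to 0.37 for EFNB2.

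The other 4 receptors were not called with EGF. EPHB4, the main receptor of ephrin-B2, lies at chr7:100802565-100827523 and had an FPKM of 27.3, 27.4 and 26.6 untreated, 31.8, 35.6 and 32.8 with EGF, and 27.6, 28.8 and 29.1 with bleogen pB1. Its EGF libraries lay above the other 6, and the difference stayed under the fold-change limit (log2 fold change 0.36, SE 0.06, edgeR adjusted p = 1e-04). EPHA1, the founding gene of the family, lies at chr7:143390289-143408856 and had an FPKM of 10.3, 10.6 and 11.2 untreated, 11.9, 13.5 and 12.5 with EGF, and 11.1, 9.98 and 10.6 with bleogen pB1. EPHA1 thus stood slightly higher in every EGF library than in any other, but was short of the limit (log2 fold change 0.30, SE 0.07, edgeR adjusted p = 0.0031).

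EPHA2 encodes the main receptor of ephrin-A1 in epithelial cells and lies at chr1:16124337-16156069. Its FPKM was 13.6, 12.5 and 13.7 untreated, 13.3, 16.5 and 14.8 with EGF, and 10.7, 11.3 and 11.7 with bleogen pB1. The EGF and untreated ranges overlapped on the FPKM scale, and every bleogen pB1 library lay below every untreated one. The log2 fold change of EPHA2 was 0.23 with EGF (SE 0.08, edgeR adjusted p = 0.022) and −0.27 with bleogen pB1 (SE 0.08, adjusted p = 0.073), neither of which met the call. The adjusted p with EGF was 0.19 with upper-quartile scaling, 0.083 without scaling factors, 0.1 and 0.12 with limma, 0.087 without untreated replicate 2 and 0.084 without EGF replicate 2, and with bleogen pB1 it was 0.035 with DESeq2 and 0.028 in edgeR on the 6 libraries compared. EPHB2, a receptor of B-type ephrins at chr1:22710839-22921500, had an FPKM of 3.00, 3.09 and 3.16 untreated, 2.67, 3.47 and 3.25 with EGF, and 3.41, 3.90 and 3.79 with bleogen pB1. EPHB2 values with EGF fell on either side of the untreated ones (log2 fold change 0.08, SE 0.09, edgeR adjusted p = 0.46, and −0.025 with upper-quartile scaling), while the bleogen pB1 libraries lay above them (log2 fold change 0.25, SE 0.09, adjusted p = 0.14).

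By the adjusted p alone, without the fold-change limit, 9 of the 10 genes passed with EGF, 6 higher and 3 lower, where 66.1% of all genes tested passed, 32.4% higher and 33.6% lower. EPHA2 is among the 9, and its pass depends on the settings given above. The CPM of the EGF and untreated libraries did not overlap for 9 of the 10, against 70.4% of all genes tested. The median log2 fold change of the 10 genes was 0.26, beside −0.01 over all genes tested. Over the 7 other family genes tested it was −0.59, so the median of the 10 does not stand for the family. The 10 genes were chosen with earlier results of these data known.

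With bleogen pB1 the log2 fold changes of the 10 genes ran from −0.27 for EPHA2 to 0.37 for EFNB2, and none met the call in edgeR, DESeq2 or limma. By the adjusted p alone 1 of 10, EFNB2, passed in edgeR, against 4.11% of all genes tested (1.56% higher), EPHA2 passed as well with DESeq2 or on the 6 libraries compared, and at an unadjusted p of at most 0.05 there were 3 of 10, against 22.2%. EPHA2, EPHB2, EPHB3 and EFNB2 did not overlap with the untreated libraries in CPM, which is 4 of 10 against 29.1% of all genes tested. The remaining log2 fold changes were 0.18 for EFNB1 (SE 0.09, edgeR adjusted p = 0.26), 0.15 for EPHB3 (SE 0.08, adjusted p = 0.29), 0.06 for EPHB4 (adjusted p = 0.6), −0.05 for EPHA1 (adjusted p = 0.76) and −0.07 for EPHB6 (adjusted p = 0.65).

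EGF-treated and bleogen pB1-treated cells were also set against each other, although the agents were given at different doses. The same rule called 6 of the 10 genes, 3 higher and 3 lower with EGF, against 28.8% of all genes tested (10.8% higher and 18.0% lower), and 9 of the 10 did not overlap in CPM between these groups, against 62.4%. The B-type ligands EFNB1 and EFNB2 were higher with EGF by log2 fold changes of 1.18 (SE 0.09, edgeR adjusted p = 2.5e-07) and 0.96 (SE 0.06, adjusted p = 4.6e-08). EPHB6 was higher by 1.11 (SE 0.08, edgeR adjusted p = 2.8e-07). EPHA4, EFNA1 and EPHB3 were lower, with log2 fold changes of −2.18, −1.59 and −0.66 (edgeR adjusted p = 2.3e-06, 1.7e-07 and 2.2e-05).

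In EGF against bleogen pB1 EPHA2 (log2 fold change 0.49, SE 0.08, edgeR adjusted p = 0.00017) was just short of the limit, and met the call at 0.57 without EGF replicate 1, 0.50 without EGF replicate 3 and 0.52 without bleogen pB1 replicate 3. EPHA1, EPHB4 and EPHB2 were not called, at 0.34, 0.31 and −0.17 (edgeR adjusted p = 0.0015, 0.00051 and 0.13). These values share libraries with those against untreated cells, and the comparisons of each agent with untreated cells share the 3 untreated libraries.

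The other 12 Eph receptor and ephrin genes were listed in at least 1 library, and 7 passed the count filter. EPHA5, EPHA7, EPHA8, EPHB1 and EFNA2 had at most 4 counts in any library and were not tested. With EGF 4 of the 7 were called, all lower, against 21.8% of all genes tested in this direction. These were the A-type receptor EPHA3 (log2 fold change −0.72, SE 0.10, edgeR adjusted p = 3.4e-05), the A-type ligands EFNA5 (−0.92, SE 0.13, adjusted p = 4.8e-05) and EFNA3 (−0.59, SE 0.22, adjusted p = 0.031), and the B-type ligand EFNB3 (edgeR adjusted p = 0.00032). EFNB3 had 17, 26 and 23 counts in untreated libraries, 1, 1 and 2 with EGF, and 28, 5 and 16 with bleogen pB1, so that its direction with EGF was opposite to that of EFNB1 and EFNB2. EFNA3 lost its call without untreated replicate 1 or 2 and without EGF replicate 2 or 3 (edgeR adjusted p = 0.075 to 0.12), and with limma on log2(FPKM + 1), where EFNB3 also lost its call. EFNA4 was not called (log2 fold change −0.38, SE 0.11, edgeR adjusted p = 0.011), nor were EPHA6 and EPHA10, which had 13 to 31 and 16 to 31 counts. None of the 7 was called with bleogen pB1.

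EFNA4, EFNA3 and EFNA1 are neighbours on chromosome 1, with gaps of 9.3 and 40.3 kb and no protein-coding gene in either gap. The read-through gene EFNA4-EFNA3 shares exons with EFNA4 and EFNA3, so that their values are uncertain, and EFNA1 has no such overlap. Among the 10 genes, EFNB2 shares 1822 exonic bases with an lncRNA on the opposite strand, EPHA4 shares 353 with another, EPHA1 shares 82 with ZYX, EPHB4 shares 69 with SLC12A9 and EPHB2 shares 34 with MIR4253. The library kit marks the strand, but whether the counting used it is not given in the sources used here, so reads from these partners may be included.

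Eph signals reach the cytoskeleton through regulators of small GTPases, through adaptors and phosphatases that bind the receptors, and through kinases, while proteases cut ephrins and receptors at the surface. The list of GTPase regulators holds exchange factors, which switch GTPases on, the chimaerins CHN1 and CHN2, which switch them off, and ELMO2, a partner of DOCK exchange factors. With EGF 3 of the 13 tested GTPase regulators were called higher and 2 lower, 5 of 22 adaptors and phosphatases higher and 3 lower, 2 of 19 kinases and GTPases higher and 0 lower, and 0 of 8 proteases higher and 2 lower. The percentages called among all genes tested, 15.1% higher and 21.8% lower, apply here too. With the other family genes included, 10 of these genes were called higher and 11 lower, which became 6 higher and 14 lower with upper-quartile scaling and 4 higher and 11 lower with limma on log2(FPKM + 1). The percentages over all genes are from the main fit. Upper-quartile scaling also lowered the part of all called genes that was higher, as given above. For limma that part is not given here, so these shifts are not particular to the lists.

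Among the GTPase regulators VAV3, an exchange factor, had 1352, 1347 and 1259 counts untreated, 171, 153 and 168 with EGF, and 1323, 1302 and 1276 with bleogen pB1. The EGF libraries lay far below the other 6, and VAV3 fell (log2 fold change −2.97, SE 0.08, edgeR adjusted p = 4e-11). ARHGEF19, another exchange factor, fell as well (−2.02, SE 0.15, adjusted p = 1.7e-07), while TIAM1, a Rac exchange factor that binds Eph receptors and B-type ephrins, rose (0.58, SE 0.11, adjusted p = 0.00033). DOCK4 and KALRN were also called higher (2.69 and 0.68, edgeR adjusted p = 3.4e-06 and 0.014). Their means were only 30.2 and 44.1 counts over the 9 libraries. The call of TIAM1 was lost with upper-quartile scaling, at 0.47, and with limma on log2(FPKM + 1), at 0.38. With that limma setting 0 of the 13 GTPase regulators were called higher, and the share of all genes called higher under it is not given here.

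Among the adaptors and phosphatases PTPN11, the phosphatase SHP2, rose with EGF (log2 fold change 0.81, SE 0.07, edgeR adjusted p = 6.2e-07), as did CBL, a ubiquitin ligase that marks receptors for degradation (0.64, adjusted p = 3.2e-06). INPPL1, the lipid phosphatase SHIP2 that binds EPHA2, fell (−0.66, edgeR adjusted p = 7.9e-07), and so did NCK2, an adaptor of receptor kinases and B-type ephrins (−0.56, adjusted p = 0.00011). The kinases RPS6KA1, which phosphorylates EPHA2, and ABL2 rose, with log2 fold changes of 0.73 and 0.71 (edgeR adjusted p = 4.2e-07 and 5.1e-06). The proteases RHBDL2, which cuts ephrin-B3 at the membrane, and ADAM10, which sheds ephrins from the surface, fell, with log2 fold changes of −0.86 and −0.52 (edgeR adjusted p = 3.9e-05 and 5.2e-06). NCK2 lost its call without EGF replicate 2, at −0.47, and ADAM10 without untreated replicate 3 or EGF replicate 2, at −0.497 and −0.485.

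With bleogen pB1 1 gene of these 4 lists was called, SH2D3C, an adaptor that binds EPHB2, where 1.26% of all genes tested were called lower. It had 35, 52 and 53 counts untreated, 13, 9 and 16 with bleogen pB1, and 6, 9 and 1 with EGF, and every treated library lay below the untreated ones. With EGF SH2D3C was called lower too (log2 fold change −3.07, SE 0.43, edgeR adjusted p = 4.5e-05), and its mean was only 21.6 counts over the 9 libraries. SH2D3C fell with bleogen pB1 (log2 fold change −1.91, SE 0.37, edgeR adjusted p = 0.014), and the call was lost without untreated replicate 2 or 3 and without bleogen pB1 replicate 2 or 3. DESeq2 gave SH2D3C no adjusted p with bleogen pB1.

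**Figure D4:**
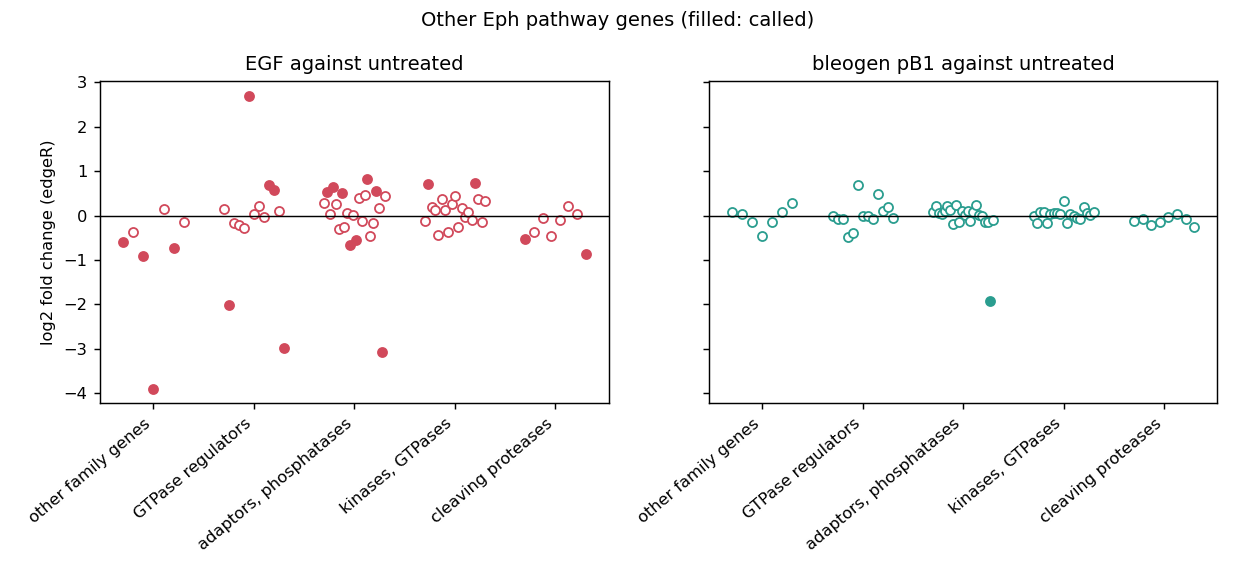
Log2 fold changes against untreated cells of the other family genes and of 4 lists of Eph pathway genes, with EGF on the left and bleogen pB1 on the right, on the same axis. Each point is a tested gene and filled points are called. With EGF the called family genes all lie below 0 and the called genes of the GTPase regulator and adaptor lists lie on both sides, and with bleogen pB1 the filled point is SH2D3C.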

How the data were processed

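RNA of the 9 HaCaT libraries was sequenced at BGI, and reads were mapped by the authors to GRCh38.p12. The labels name the RNeasy kit and the paper the PureLink kit, and the counting program is not given in the sources used here. The authors deposited an expected count for each gene of each library, an estimate without scaling for depth. They also deposited FPKM, which the authors scaled for gene length and depth, with 0.01 the lowest listed, and genes missing from a library were taken as 0. The library labels give the groups.

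Rounded expected counts went into edgeR 4.0.16 under R 4.3.3 (TMM scaling, the filterByExpr filter, glmQLFit and glmQLFTest, all 9 libraries in 1 fit with 6 residual degrees of freedom, Benjamini-Hochberg adjustment over 12394 genes). Dividing the absolute log2 fold change by the root of F gave the SE. Calls used the thresholds of the study, which applied DESeq2. Sums of FPKM were compared by two-sided exact permutation tests. The alternatives were DESeq2 1.42.0, limma 3.58.1 on log2(FPKM + 0.1) or on log2(FPKM + 1), the latter also for genes that reached an FPKM of 1 in 3 libraries, other scaling, count filters and fold-change limits, the 6 libraries compared alone, a replicate block, each library left out, and sums over the whole family. The scripts were tested on simulated data. No pair of libraries held identical values, and replicates differed by more than sampling noise.

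The 10 genes and all lists, which come from textbook knowledge, were chosen with earlier results of these data known. All 10 genes and every other family gene are named. From each pathway list at most 2 rises and 2 falls with the largest change are named. These are genes called with EGF with at least 50 counts on average. Each gene called with bleogen pB1 is named too, and so are DOCK4 and KALRN, which have fewer counts. Promoters are shown for the 2 genes with the largest called change in each direction. Gene coordinates are from GENCODE 44 on GRCh38, 1-based. Protein sequences were not used here.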

Additional observations from a re-analysis of the deposited data

How the results depend on the processing

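Over 510 alternative values of the log2 fold changes of the 10 genes, 497 kept their direction and their side of the call. The number of the 10 genes called with EGF against untreated cells was 6 under every scaling, filter, tool and block tried, 9 by the adjusted p alone, 5 at a log2 fold change of at least 1, and 5 to 6 with 1 library left out. With bleogen pB1 against untreated cells it was 0 in all of these except the adjusted p alone, which called 1. In EGF against bleogen pB1 it was 6 to 7 with 1 library left out. The log2 fold change of EPHA4 with EGF ran from −2.32 to −1.32, the latter from limma on log2(FPKM + 1).

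Directions reversed for 3 genes that were not called. EPHB2 with EGF was −0.025 under upper-quartile scaling. With bleogen pB1, leaving out 1 library gave −0.24 to 0.19 for EPHA4, which was above 0 without untreated replicate 2 or bleogen pB1 replicate 2, and −0.037 to 0.13 for EFNA1, which was below 0 without untreated replicate 3 or bleogen pB1 replicate 1 or 3. EPHA2 in EGF against bleogen pB1 met the call at 0.505 under RLE scaling and DESeq2. The cause was not tested.

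Counts over all genes moved by construction with the limits. By the adjusted p alone they were 8187 with EGF, 509 with bleogen pB1 and 7214 in EGF against bleogen pB1, and at a log2 fold change of at least 1 they were 1892, 31 and 1458. With bleogen pB1, limma on log2(FPKM + 0.1) called 117 genes in place of 183, and leaving out 1 library gave 102 to 436, with 102 without untreated replicate 1 or bleogen pB1 replicate 3, 109 without bleogen pB1 replicate 2 and 436 without bleogen pB1 replicate 1. Genes called over the pathway lists and other family genes were 44 with EGF and 37 in EGF against bleogen pB1 by the adjusted p alone, and 5 and 4 at a log2 fold change of at least 1, in place of 21 and 16. With bleogen pB1 this count was 0 in place of 1 with at least 10 counts in every library, with DESeq2, which gave SH2D3C no adjusted p, with limma on log2(FPKM + 0.1) and with limma on log2(FPKM + 1) under the FPKM filter, and 0 to 1 with 1 library left out.

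With all family genes in the sums, the log2 ratio of ephrin FPKM was 0.30 with EGF against untreated and 0.15 in EGF against bleogen pB1, in place of 0.53 and 0.34, and the log2 ratio of ephrin to receptor FPKM was 0.15 and 0.012, in place of 0.33 and 0.15. The 0.15 in EGF against bleogen pB1 rests on overlapping groups (two-sided exact permutation test, p = 0.4) and ran from 0.056 without EGF replicate 1 to 0.24 without EGF replicate 2. The B-type share of ephrin FPKM, its alternatives and those read for single pathway and other family genes were added after seeing the data.

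Deviations from the group means were correlated between same-numbered libraries. The correlations were −0.0304 to 0.2067 between bleogen pB1 and untreated cells and 0.0039 to 0.0449 between EGF and untreated cells. Between EGF and bleogen pB1 they were 0.0269 to 0.0562. Differently numbered libraries of bleogen pB1 and untreated cells gave −0.2533 to 0.1628. Deviations from a mean of 3 libraries are not independent, so these values cannot decide whether the numbers pair the samples. With the replicate number as a block, 4560 genes were called with EGF, 186 with bleogen pB1 and 3550 in EGF against bleogen pB1, and the 10 genes gave 6, 0 and 6 calls. With 3 libraries per group, changes near the limit, such as that of EPHB3, depend on single libraries.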
